A study of Nothobranchius furzeri with 16 samples.

Results

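Brain transcripts of old MZM-0410 killifish at 39 weeks post-hatching (wph) were compared with those of adult MZM-0410 killifish at 12 wph, the step from adulthood to old age in the turquoise killifish Nothobranchius furzeri. The members were the 4 libraries of old fish (replicates 6, 8, 9 and 10) and the 4 of adult fish (replicates 1, 3, 4 and 5), 8 of the 16 libraries of the series, and all genes with enough counts in them, 17980 of the 26739 annotated. Each library came from the RNA of a brain lysate that also served protein work, and was depleted of ribosomal RNA before sequencing. Both groups were untreated fish of the same wild-derived strain, listed as males by the study, fasted, and killed at the same hour of the day, so age was the difference named between them. Neither group carries an allele or a treatment. The study lists more animals per age for its transcriptome than the libraries analysed here.

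Nothobranchius furzeri lives in ponds that dry out each year and completes its life within months, and its old brain shows neuronal loss and gliosis. The adult fish brain differs from that of mammals in keeping radial glia that divide and add neurons for life. In the ageing vertebrate brain the processes most often followed are the upkeep of long myelinated axons, inhibitory and excitatory synapses, the renewal of neurons, mitochondrial energy supply, and the chaperones and proteasomes that keep proteins folded and cleared. The results are ordered by these systems, and genes carry the symbol of their human orthologue. Many genes have several copies in this fish, and copies that share a symbol are told apart by their gene identifier. Where a symbol stands without an identifier, the values belong to its only tested copy or to its only called copy.

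The libraries of old fish held 8267607 to 8740860 counts and those of adult fish 5475421 to 9451019. All values are CPM, counts scaled to a common library size per 1000000, listed for replicates 6, 8, 9 and 10 at 39 wph and then for replicates 1, 3, 4 and 5 at 12 wph. The first principal component of the 500 most variable genes (36.1% of the variance) set 12 wph replicate 1, and less far 12 wph replicate 5, apart from the other libraries, and the second (20.5%) set 39 wph replicate 9 apart from the other old fish. The summed level of the tested neuron markers was 5367 to 5784 CPM at 39 wph and 6368 to 6729 CPM at 12 wph, so that the ages did not overlap. Genes of neighbouring tissues varied. Of the 6 measured skeletal muscle markers, the 2 copies of PGAM2 made up most of the summed level (146 to 197 CPM at 39 wph and 204 to 311 CPM at 12 wph), and the other 4 summed to 10.1, 10.9, 11.6 and 7.51 CPM at 39 wph, against 119.9, 29.1, 11.8 and 97.2 CPM at 12 wph. The muscle myosin light chain MYLPF was at 2.17, 3.47, 4.07 and 1.85 CPM at 39 wph, against 83.9, 16.0, 3.15 and 65.9 CPM at 12 wph, so it was high mainly in 12 wph replicates 1 and 5. Growth hormone (GH1), made in the pituitary, was at 66.8, 138, 0.465 and 336 CPM at 39 wph, against 4.03, 522, 288 and 44.5 CPM at 12 wph, which differed more between fish of an age than between the ages. The fetal-type haemoglobin symbol HBG1 was at 19.7, 77.2, 77.3 and 16.7 CPM at 39 wph, against 163, 100.2, 149 and 217 CPM at 12 wph, and here the ages did not overlap.

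The test was the edgeR quasi-likelihood test across all 17980 genes, two-sided, with Benjamini-Hochberg adjustment, and a gene was called at an adjusted p under 0.05. At 39 wph, 9.64% of the tested genes were called, 3.89% as higher (700 genes) and 5.75% as lower (1034 genes). Most changes were small. The median called gene was higher by 0.39 or lower by 0.45 on the log2 scale, and the median over all tested genes was 0.0026. Libraries of the 2 ages did not overlap in 17.5% of all genes, 8.09% with every old fish above and 9.44% with every old fish below. Symbols were known for only some of the tested genes, and called genes carried one more often than others did; some symbols came from tables ranked by transcript change. Among the genes with a symbol, 5.91% were called higher and 11.6% lower, and these shares stand beside the gene lists that follow. They are an imperfect measure, because a list named largely from the ranked tables can pass them through its naming alone. Over genes named by the other tables the shares were 3.68% and 9.18%. Counts without the ranked names are given for the glutamate receptor list only. A call that stayed under 0.05 in each of the 8 fits with 1 library left out is said to hold ("2 without old fish 6" then means 2 calls in the fit that leaves out 39 wph replicate 6), as did 185 of the higher and 361 of the lower calls. The fit without 39 wph replicate 6 gave the fewest calls, 222 higher and 386 lower, and without 12 wph replicates 1 and 5 together there were 68 and 149.

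**Figure D1:**
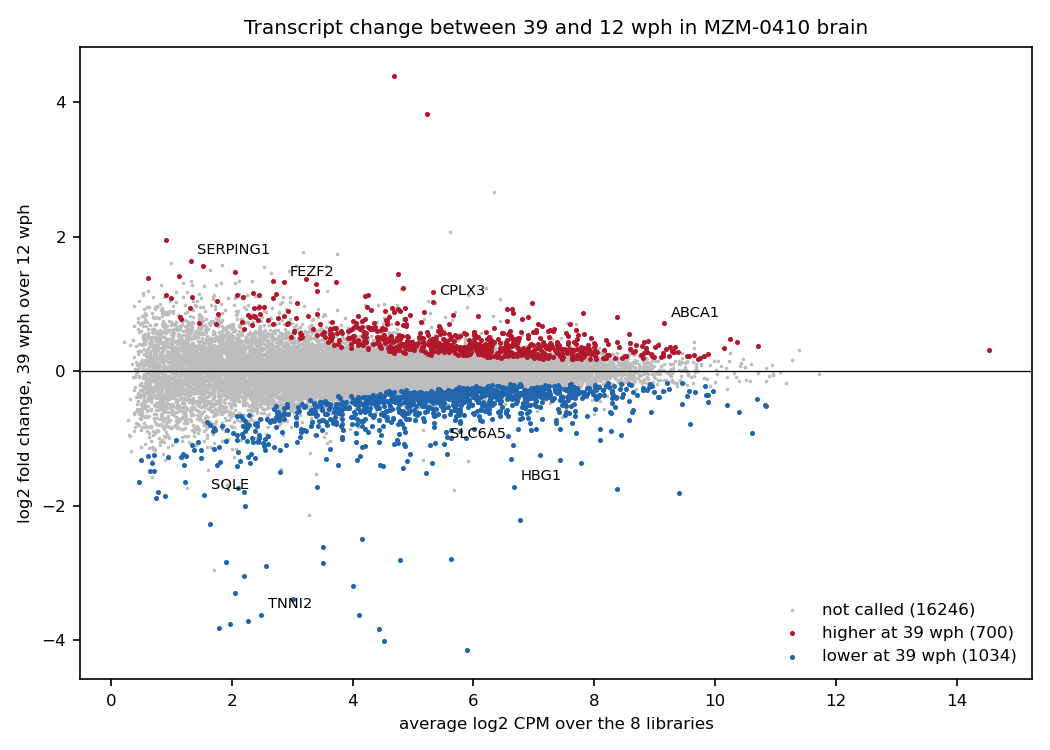
Each point is 1 of the 17980 tested genes, with the average log2 CPM over the 8 libraries on the x axis and the log2 fold change, 39 wph over 12 wph, on the y axis; red points were called higher (700), blue points lower (1034), and grey points were not called. Most called genes lie within 1 log2 unit of 0, and the muscle gene TNNI2 stands among a scatter of blue points below -2.

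Among the named genes with the smallest p-values or the largest changes, the higher ones included regulators of transcription, lipid export and glycogen. ABCA1 (Nfu_g_1_007147), which exports cholesterol from cells to apolipoproteins, was at 665, 610.0, 781 and 786 CPM at 39 wph, against 405, 497, 405 and 427 CPM at 12 wph. The gene rose 1.64-fold (log2 0.71 ± 0.094 SE, adjusted p = 0.00469). Genes of this kind were chosen only where old and adult libraries did not overlap, so that separation follows from the choice. PPP1R3C (Nfu_g_1_018006), a subunit that brings a phosphatase to glycogen, was at 16.9, 15.6, 13.7 and 11.4 CPM at 39 wph, against 7.14, 3.92, 6.71 and 5.95 CPM at 12 wph and rose by 1.30 ± 0.19 log2 (adjusted p = 0.00619). The transcription factor FEZF2, known for specifying forebrain neurons, was at 9.75, 8.98, 10.3 and 10.2 CPM at 39 wph, against 1.65, 5.62, 4.79 and 3.04 CPM at 12 wph, low in all adult fish and lowest in 12 wph replicate 1 (log2 1.32 ± 0.26, adjusted p = 0.0150). ARHGAP4, which switches off small GTPases, rose by 1.23 log2, FAM20C, a kinase of secreted proteins, by 1.01, BCOR, a corepressor that partners BCL6, by 0.60, SLC2A4RG, a zinc finger protein that binds a glucose transporter promoter, by 0.50, and LRMP, a membrane protein of the endoplasmic reticulum, by 0.63. These calls held. The neurokinin receptor TACR2 (log2 1.13; adjusted p up to 0.0721 with 1 library left out, 39 wph replicate 6), the zinc finger gene ZNF711 (0.96; adjusted p up to 0.0552 with 1 library left out, 12 wph replicate 3) and SERPING1, the inhibitor of the first complement component (1.64; adjusted p up to 0.0949 with 1 library left out, 12 wph replicate 3), did not hold.

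Among the lower genes chosen in the same way, several act on chromatin or carry small molecules. A copy of BPTF, the histone-reading subunit of a nucleosome remodeller, was at 2.89, 4.31, 3.60 and 3.46 CPM at 39 wph, against 8.42, 10.61, 9.86 and 11.3 CPM at 12 wph (log2 -1.50 ± 0.17, adjusted p = 0.00337). H1F0, the linker histone of resting cells, was at 18.1, 22.6, 20.6 and 27.4 CPM at 39 wph, against 52.0, 46.8, 74.5 and 54.9 CPM at 12 wph and fell by 1.36 log2 (SE 0.16, adjusted p = 0.00385). The ATP-binding protein ABCF2 fell by 0.64 log2, the orphan transporter SLC22A23 by 0.60, and the fibrillar collagen gene COL5A2 by 1.65, and all 3 calls held. The largest decreases belonged to genes that moved with the muscle markers. A copy of GAPDH (Nfu_g_1_001128) was at 2.77, 3.47, 4.54 and 2.19 CPM at 39 wph, against 33.7, 11.5, 6.85 and 29.0 CPM at 12 wph, and MYBPH, a myosin-binding protein of fast muscle, was at 2.05, 2.16, 1.05 and 2.08 CPM at 39 wph, against 10.8, 3.92, 2.74 and 12.6 CPM at 12 wph. Both were highest in 12 wph replicates 1 and 5, the libraries with the most MYLPF, and of the 21 genes that fell more than 4-fold 19 were higher in those 2 libraries than in the 6 others. The same held for 40 of the 110 genes that fell more than 2-fold (36.4%) and for 229 of all 1034 lower genes (22.1%). It held for 5.93% of all tested genes. Genes picked as lower have high adult libraries already, so that last share is not a like baseline for the others. The part of muscle RNA in these decreases was not tested. Among genes without a symbol, the smallest p-values belonged to Nfu_g_1_015490 (2.78-fold at 39 wph over 12 wph) and Nfu_g_1_018181 (2.22-fold), which rose, and to Nfu_g_1_011764 (log2 -1.30) and Nfu_g_1_001338 (log2 -0.99), which fell.

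Called genes of the axon cytoskeleton were all lower in old fish. Of 35 tested genes for neurofilaments, tubulins, their associated proteins and the collapsin response mediators (CRMPs), 14 fell and 0 rose, and the median log2 fold change was -0.30. TUBB2A, a beta-tubulin of growing neurites, was at 11.2, 9.82, 8.02 and 8.31 CPM at 39 wph, against 16.5, 18.7, 19.03 and 21.0 CPM at 12 wph. Every old fish was below every adult fish, and the gene fell by 1.01 log2 (SE 0.13, adjusted p = 0.00439). INA, alpha-internexin, the fourth subunit of neurofilaments, was at 123, 153, 153 and 144 CPM at 39 wph, against 214, 237, 196 and 249.8 CPM at 12 wph (log2 -0.65 ± 0.091, adjusted p = 0.00529). The CRMPs, which link tubulin to guidance signals, had lower calls only, and DPYSL5 (Nfu_g_1_021724) was at 67.3, 82.5, 79.3 and 64.3 CPM at 39 wph, against 110.4, 126, 112 and 103 CPM at 12 wph, a fall of 0.62 log2 (adjusted p = 0.00642). DPYSL4 fell by 0.45 log2, the second DPYSL5 copy by 0.39, DPYSL3 by 0.36 and MAP1B, a microtubule stabiliser of axons, by 0.36, and these calls held. DPYSL2 (-0.35; adjusted p up to 0.0544 with 1 library left out, 39 wph replicate 6) and CRMP1 (-0.40; adjusted p up to 0.0825 with 1 library left out, 12 wph replicate 5) fell without holding. In the 8 fits with 1 library left out the list had 10 to 15 lower members, and 10 members were lower in every fit. Some members, such as the neurofilament genes, are also among the neuron markers. Of 24 tested neuron markers, 14 fell (9 held) and 2 rose (0 held), with a median of -0.31 log2. The lower markers numbered 9 without old fish 6. In bulk brain RNA, fewer cells of a type and less RNA per cell cannot be told apart. The summed level of the neuron markers was lower at 39 wph, and the part of that lower level in these falls and in those of inhibitory transmission and release was not tested.

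Most genes of the motors that run along these tracks were not called. Of 23 kinesin and dynein genes, 4 fell (17.4%, against 11.6% over genes with a symbol) and 1 rose (4.35%, against 5.91%), with a median of -0.065. The dynein light chain DYNLL2 (Nfu_g_1_000761) was at 172, 188, 176 and 182 CPM at 39 wph, against 231, 231, 213 and 226 CPM at 12 wph and KIFAP3, the cargo adaptor of kinesin-2, at 93.2, 93.3, 96.5 and 92.4 CPM at 39 wph, against 117, 114, 117 and 113 CPM at 12 wph. The groups were apart for both genes, and the falls of 0.33 and 0.30 log2 (adjusted p = 0.00860 and 0.00930) held. The 1 higher motor, the neuronal kinesin heavy chain KIF5C (log2 0.27), did not hold (adjusted p up to 0.0689 with 1 library left out, 39 wph replicate 6). The lower members numbered 2 without old fish 6, 9 or 10 or adult fish 3 or 4.

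Myelin genes showed some of the largest decreases outside the muscle genes. Of 14 tested markers of oligodendrocytes and myelin, 8 fell, none rose in the same test (1 was higher at an unadjusted p under 0.05, and DESeq2 called 0), and the median was -0.67 log2. Their summed level was 1700.0 to 2209 CPM at 39 wph and 2604 to 4383 CPM at 12 wph. BCAS1, a marker of oligodendrocytes that are forming myelin, was at 12.9, 25.5, 16.5 and 18.6 CPM at 39 wph, against 56.2, 46.3, 31.4 and 38.99 CPM at 12 wph. The highest old fish stayed below the lowest adult fish, and the fall was 2.34-fold (log2 -1.23 ± 0.21, adjusted p = 0.00987). HAPLN2, a link protein of the matrix at nodes of Ranvier, was at 16.5, 15.6, 10.1 and 14.1 CPM at 39 wph, against 32.0, 34.3, 26.4 and 23.9 CPM at 12 wph (log2 -1.05 ± 0.16, adjusted p = 0.00693). Both calls held. NKX6-2, a transcription factor of mature oligodendrocytes (-0.69; adjusted p up to 0.0758 with 1 library left out, 39 wph replicate 6), and CNP, an enzyme of non-compact myelin (-0.40; adjusted p up to 0.128 with 1 library left out, 39 wph replicate 6), fell without holding. Called genes of the axon beside the node were lower as well. The tested copies of the axonal adhesion genes NFASC and CNTNAP2 were not called (log2 -0.41 to 0.074). CNTNAP1, the paranodal partner of contactin, was at 208, 224, 218 and 185 CPM at 39 wph, against 366, 303, 265 and 297 CPM at 12 wph (log2 -0.56 ± 0.095, adjusted p = 0.00948), and both CNTN1 copies fell by 0.39 and 0.37 log2.

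**Figure D2:**
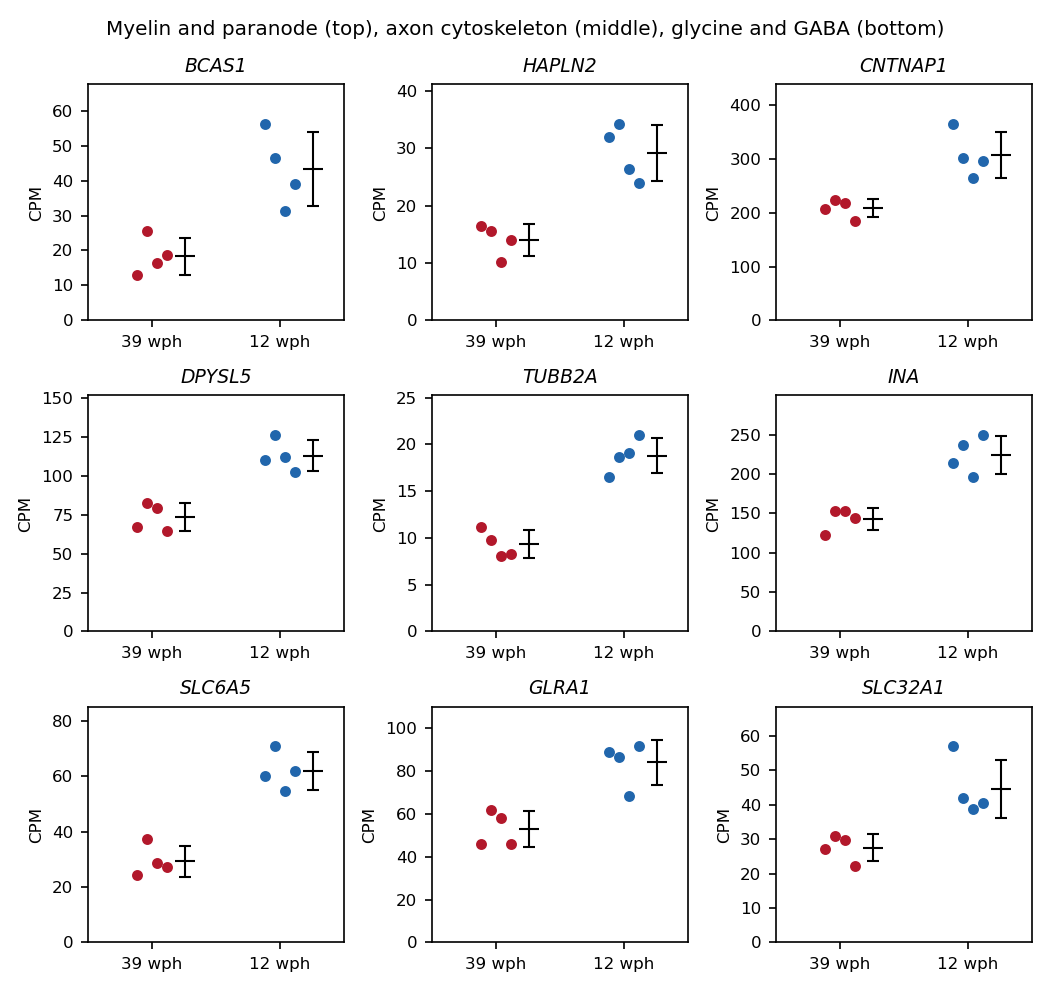
CPM (y axis, from 0) of 9 genes in each library, 39 wph in red on the left and 12 wph in blue on the right of each panel, with the group mean and SD as the black mark and bars (n = 4 each). In all 9 panels, BCAS1, HAPLN2 and CNTNAP1 (myelin and paranode), DPYSL5 (Nfu_g_1_021724), TUBB2A and INA (axon cytoskeleton), and SLC6A5, GLRA1 and SLC32A1 (inhibitory transmission), the 4 old fish lie below the 4 adult fish.

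Inhibitory transmission by glycine and GABA was lower in most of its called genes. Of 26 tested genes, 12 fell (8 held) and 3 rose (1 held), and the median was -0.29 log2. On the glycine side, the neuronal transporter SLC6A5, which refills glycinergic terminals, was at 24.3, 37.4, 28.5 and 27.1 CPM at 39 wph, against 60.1, 71.0, 54.8 and 61.8 CPM at 12 wph. This was a 2.11-fold fall with no overlap (log2 -1.08 ± 0.13, adjusted p = 0.00385). The receptor subunit GLRA1 was at 45.9, 61.9, 57.8 and 45.8 CPM at 39 wph, against 89.0, 86.4, 68.5 and 91.7 CPM at 12 wph (log2 -0.67 ± 0.12, adjusted p = 0.0112), and the glial glycine transporter SLC6A9 fell by 0.49 log2 (adjusted p = 0.00924). On the shared and GABA side, SLC32A1, which loads both transmitters into vesicles, was at 27.2, 30.9, 29.8 and 22.2 CPM at 39 wph, against 57.1, 41.9, 38.9 and 40.4 CPM at 12 wph (log2 -0.69 ± 0.14, adjusted p = 0.0154). The GABA transporter SLC6A11 was at 244, 340.1, 307 and 264 CPM at 39 wph, against 551, 522, 372 and 461 CPM at 12 wph, a fall of 0.72 log2 (adjusted p = 0.0109). GAD2, a GABA-synthesising enzyme, fell by 0.38 log2. Receptor subunits went both ways. GABRA3 (-0.39; adjusted p up to 0.0542 with 1 library left out, 39 wph replicate 6) fell and GABRA5, an extrasynaptic subunit (0.55; adjusted p up to 0.0872 with 1 library left out, 12 wph replicate 5), rose, both without holding. With 1 library left out, 8 to 13 members were lower, and the higher members numbered 1 without old fish 6, 8 or 9 or adult fish 5. Factors of the midbrain, hindbrain or sensory neurons, a group put together after values were seen, gave 17 lower calls of 19. The make-up of the dissected tissue by brain region was not measured, and its part in these falls was not tested.

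Called genes of glutamate receptors and the postsynaptic density were mostly higher. Of the vesicular glutamate transporters, which are counted with the release machinery, SLC17A8 fell (log2 -0.18) and SLC17A6 (-0.24) was not called. Of 36 tested glutamate receptor and postsynaptic density genes, 9 rose (4 held) and 1 fell, GRIN2C (log2 -0.19; adjusted p up to 0.0821 with 1 library left out, 39 wph replicate 9), with a median of 0.094. GRM2, a metabotropic glutamate receptor, was at 169, 162, 157 and 154 CPM at 39 wph, against 110.1, 123, 128 and 128 CPM at 12 wph (log2 0.39 ± 0.063, adjusted p = 0.00839). GRM8 (Nfu_g_1_005830), another receptor of that kind, was at 91.6, 88.4, 82.3 and 82.7 CPM at 39 wph, against 60.6, 63.3, 73.0 and 65.0 CPM at 12 wph (log2 0.40 ± 0.072, adjusted p = 0.0112). The GRM8 copy Nfu_g_1_012059 (log2 -0.12) was not called. SHANK2, the scaffold below the receptors, rose in its 3 called copies, and the copy Nfu_g_1_016200 was at 279, 261, 288 and 318 CPM at 39 wph, against 169, 229.7, 219 and 196 CPM at 12 wph (log2 0.49 ± 0.094, adjusted p = 0.0134). The SHANK2 copies Nfu_g_1_008152 and Nfu_g_1_010570 rose by 0.32 and 0.44 log2, the second without holding (adjusted p up to 0.0620 with 1 library left out, 39 wph replicate 6). The NMDA receptor subunit GRIN2A rose in 2 copies (0.30 and 0.33 log2), and both calls were lost without 39 wph replicate 6 (adjusted p = 0.0522 and 0.0532), without which the list had 4 higher members. Among the 21 members whose symbol came from tables not ranked by transcript change, 0 rose and 1 fell, against 3.68% higher and 9.18% lower over all genes named by those tables.

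Called genes of the release machinery were more often lower than higher. Of 43 tested genes, 11 fell (6 held) and 4 rose (1 held), with a median of -0.13 log2. SYT2, the fast calcium sensor of release, was in its copy Nfu_g_1_020981 at 20.5, 33.8, 29.4 and 24.5 CPM at 39 wph, against 53.1, 42.6, 39.2 and 45.6 CPM at 12 wph. Here the old fish were all lower, by 0.73 log2 (SE 0.15, adjusted p = 0.0150). The vesicle GTPase RAB3A was at 46.2, 56.2, 47.1 and 47.0 CPM at 39 wph, against 73.1, 72.5, 75.7 and 62.2 CPM at 12 wph (log2 -0.53 ± 0.087, adjusted p = 0.00884). NAPB and NSF, which recycle the fusion complex, fell by 0.39 and 0.28 log2, and the vesicle tether SYN1 by 0.40, and these calls held. BSN (bassoon), a giant scaffold of the active zone, was at 1248, 1181, 1364 and 1280.5 CPM at 39 wph, against 968, 948, 1055 and 1003 CPM at 12 wph, a rise of 0.35 log2 (adjusted p = 0.00801) that held. CPLX3, a complexin, was at 56.1, 61.3, 42.6 and 54.2 CPM at 39 wph, against 15.4, 29.4, 37.5 and 20.7 CPM at 12 wph and rose by 1.04 log2 without holding (adjusted p up to 0.0537 with 1 library left out, 39 wph replicate 6). The other two higher members were relatives of SYN1, SYN2 (0.22 log2; adjusted p up to 0.0956 with 1 library left out, 39 wph replicate 9) and SYN3 (0.28; adjusted p up to 0.0760 with 1 library left out, 12 wph replicate 3). Lower members numbered 6 without old fish 6, 7 without old fish 10 or adult fish 3, and higher members 2 without old fish 6, 8, 9 or 10 or adult fish 1 or 5.

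Voltage-gated channels went both ways. Of 45 tested genes, 10 rose (22.2%, 3 held) and 8 fell (17.8%, 4 held), against 5.91% higher and 11.6% lower over genes with a symbol. KCNA2, an axonal potassium channel clustered beside nodes, was at 45.3, 52.7, 45.1 and 49.2 CPM at 39 wph, against 72.5, 64.5, 63.0 and 65.5 CPM at 12 wph (log2 -0.46 ± 0.075, adjusted p = 0.00860). KCNAB1 (Nfu_g_1_005212), a subunit of the same channels, fell by 0.35 log2, and KCNA1 by 0.43 without holding (adjusted p up to 0.0666 with 1 library left out, 39 wph replicate 8). The KCNAB1 copies Nfu_g_1_003383 (log2 0.32) and Nfu_g_1_021186 (-0.10) were not called. SCN4B, a sodium channel subunit, was at 6.26, 9.46, 7.67 and 7.27 CPM at 39 wph, against 14.8, 13.7, 12.6 and 13.0 CPM at 12 wph (log2 -0.82 ± 0.14, adjusted p = 0.00995). Of the dendritic A-type channels, KCND2 (Nfu_g_1_008101) was at 124, 118, 107 and 110.3 CPM at 39 wph, against 78.4, 84.5, 89.7 and 91.5 CPM at 12 wph (log2 0.42 ± 0.071, adjusted p = 0.00948), and its copy Nfu_g_1_008063 rose by 0.39 log2, while the copy Nfu_g_1_013959 (-0.12) and KCND1 (0.052) were not called. Of the proteins that bind these channels, KCNIP4 rose by 0.44 log2 and held, and KCNIP2 fell by 0.35 (adjusted p up to 0.101 with 1 library left out, 39 wph replicate 6). The 2 called copies of CACNB4, a calcium channel subunit, also had opposite signs. Nfu_g_1_005945 had log2 0.36, with an adjusted p of 0.0496 and old and adult libraries overlapping. Nfu_g_1_014043 had log2 -0.28 (adjusted p = 0.0254), without overlap. The calcium-gated channel KCNMA1 rose by 0.36 log2 and held. The calcium channels CACNA1C (0.23), CACNA1E (0.22) and CACNA1G (0.33) rose and lost the call without 39 wph replicate 6 (adjusted p = 0.0572, 0.0628 and 0.0512). Without that library the list had 3 higher and 4 lower members, and it had 5 lower ones without 39 wph replicate 9 or 12 wph replicate 5.

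Guidance receptors also went both ways. Of 50 tested genes, 8 rose (16%, 6 held) and 6 fell (12%, 4 held), with a median of -0.021. The shares over genes with a symbol were 5.91% higher and 11.6% lower, so the lower share was near that of all named genes. ROBO3, a receptor that governs midline crossing, rose in both called copies, and the copy Nfu_g_1_000719 was at 97.1, 95.1, 100.2 and 101 CPM at 39 wph, against 63.5, 76.0, 73.5 and 68.0 CPM at 12 wph (log2 0.48 ± 0.067, adjusted p = 0.00529). ROBO2, a receptor for SLIT repellents, was at 112, 108, 115 and 101 CPM at 39 wph, against 159.9, 147, 140.3 and 129 CPM at 12 wph, a fall of 0.40 log2 (adjusted p = 0.0116). Thus members of a single receptor family had opposite signs. The ephrin receptors EPHA8 and EPHB6 rose by 0.47 and 0.58 log2 while EPHB2 fell by 0.37, and the semaphorin receptor NRP2 rose by 0.44 while its ligand gene SEMA3B fell by 0.39. Among 48 adhesion genes, 3 rose (6.25%) and 4 fell (8.33%), shares near or below those over genes with a symbol. SLITRK5, a synaptic adhesion protein, rose by 0.39 log2 and held, and NLGN1, a neuroligin of excitatory synapses, rose by 0.28 without holding (adjusted p up to 0.0528 with 1 library left out, 39 wph replicate 6). Without 39 wph replicate 6 the adhesion list had 1 higher member.

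**Figure D3:**
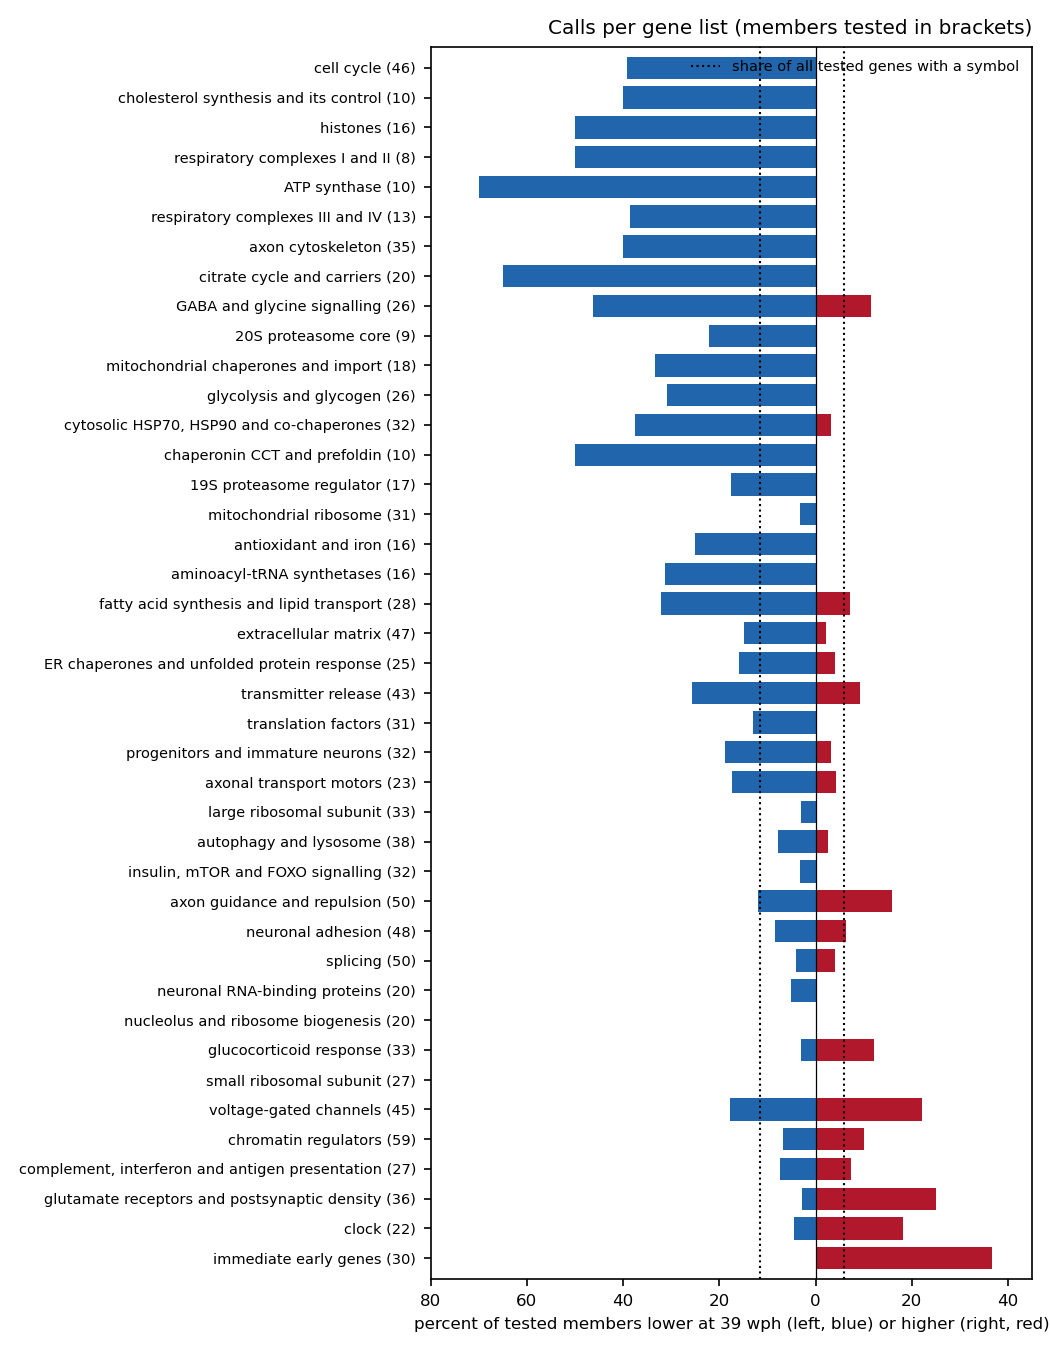
For each gene list with 8 or more tested members, the bar to the left gives the percent of members lower at 39 wph and the bar to the right the percent higher, with lists ordered from the lowest median log2 fold change at the top to the highest at the bottom. Dotted lines mark the shares over all tested genes with a symbol (11.6% lower, 5.91% higher). Among others, the ATP synthase, citrate cycle and histone lists pass them on the left. Immediate early genes, glutamate receptors, voltage-gated channels, clock and guidance genes are among those that pass on the right. A list can pass through its naming alone, and the glutamate list's increases lie among members named from tables ranked by transcript change.

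Called genes of dividing cells were all lower in old fish. Of 46 tested cell cycle genes, 18 fell and none rose (none at an unadjusted p under 0.05, and none by DESeq2), 43 had a negative log2 fold change, and the median was -0.59. KIF20A, a kinesin of cell division, was at 1.44, 2.63, 1.74 and 1.62 CPM at 39 wph, against 3.66, 5.09, 5.34 and 4.84 CPM at 12 wph (log2 -1.35 ± 0.24, adjusted p = 0.0101). MCM4, part of the helicase that opens DNA for replication, was at 5.30, 4.55, 5.47 and 3.12 CPM at 39 wph, against 7.51, 10.8, 10.1 and 10.8 CPM at 12 wph (log2 -1.10 ± 0.20, adjusted p = 0.0108). ASPM, a spindle pole protein of neural progenitors, fell by 1.16 log2, the spindle factor TPX2 by 1.01 and the condensin gene SMC4 by 0.62, and all held. These are low transcripts, and counts of the whole list summed to 382 to 453 CPM at 39 wph and 517 to 652 CPM at 12 wph. Lower members numbered 8 without old fish 6, 11 without adult fish 3 or 5. Among 32 genes of progenitors and immature neurons, 6 fell (18.8%, against 11.6% over genes with a symbol) and 1 rose (3.13%, against 5.91%). The Notch ligand DLL1, which marks cells leaving the progenitor pool, was at 2.41, 4.19, 3.49 and 2.66 CPM at 39 wph, against 5.31, 6.79, 7.12 and 7.05 CPM at 12 wph, a 2.07-fold fall (log2 -1.05 ± 0.21, adjusted p = 0.0145). SOX11, a factor of newborn neurons, fell by 0.57 log2 and held. JAG1, another Notch ligand, was the higher member (log2 0.27; adjusted p up to 0.0655 with 1 library left out, 39 wph replicate 6).

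Called histone genes were lower, and chromatin regulators went both ways. Of 16 tested genes for histones, linker histones and high-mobility-group proteins (HMGA1 and the copies of HMGB1 and HMGB2), 8 fell (4 held). A copy of HMGB1 (Nfu_g_1_000752) was among the lower ones. None rose (1 at an unadjusted p under 0.05, a copy of HMGB2, and 0 by DESeq2), and the median was -0.45. A copy of the linker histone HIST1H1A (Nfu_g_1_011606) was at 3.97, 3.47, 8.37 and 3.58 CPM at 39 wph, against 8.97, 13.8, 23.1 and 18.1 CPM at 12 wph (log2 -1.73 ± 0.33, adjusted p = 0.0129), and near-identical copies of such genes may share reads. The variant H2AFY, a macro-domain histone, fell by 0.49 log2 and held. The lower members of the histone list numbered 4 without old fish 6, 5 without old fish 10. Of 59 chromatin regulators, 6 rose (10.2%, 4 held) and 4 fell (6.78%, 1 held), against 5.91% higher and 11.6% lower over genes with a symbol. KDM2B, a histone demethylase that recruits a Polycomb complex, was at 23.8, 22.4, 23.7 and 25.1 CPM at 39 wph, against 15.7, 17.2, 13.6 and 14.1 CPM at 12 wph (log2 0.65 ± 0.10, adjusted p = 0.00707). The deacetylase HDAC9 rose by 0.59 log2 and the remodeller CHD2 by 0.41, whereas the deacetylase HDAC1 fell by 0.35, and all 3 calls held. Lower regulators numbered 1 without old fish 6, 2 without old fish 9 or adult fish 3 or 5.

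Genes for mitochondrial energy supply had negative values almost throughout, and their called members fell. Of 20 tested genes of the citrate cycle and the carriers of mitochondrial membranes, 13 fell (8 held), all 20 had a negative log2 fold change, and the median was -0.29. MDH2, malate dehydrogenase, was at 160.2, 178, 155 and 151 CPM at 39 wph, against 204, 226, 221 and 217 CPM at 12 wph (log2 -0.43 ± 0.063, adjusted p = 0.00612). Every old fish was below every adult fish. PDHB, a subunit of the enzyme that feeds pyruvate into the cycle, fell by 0.44 log2, and CS, citrate synthase, by 0.38. The outer membrane channels fell, VDAC1 by 0.38, VDAC2 by 0.41 and VDAC3 by 0.47 log2, and these calls held. Lower members of the list numbered 8 without old fish 6 or 10.

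The respiratory chain showed the same sign. Lower calls numbered 4 of 8 in complexes I and II, 5 of 13 in complexes III and IV and 7 of 10 in ATP synthase, with medians of -0.36, -0.31 and -0.35 log2. ATP5J, a coupling subunit of ATP synthase, was at 40.0, 48.6, 33.8 and 35.6 CPM at 39 wph, against 63.4, 63.6, 59.3 and 51.0 CPM at 12 wph (log2 -0.59 ± 0.12, adjusted p = 0.0150). COX6A1, a regulatory subunit of cytochrome oxidase, was at 68.6, 88.6, 70.2 and 63.3 CPM at 39 wph, against 94.1, 113, 106 and 106 CPM at 12 wph (log2 -0.53 ± 0.10, adjusted p = 0.0127). UQCRC1, a core subunit of complex III, fell by 0.41 log2 and SDHA, the flavoprotein of complex II, by 0.23, and both held. In complexes I and II the lower calls numbered 1 without old fish 6, 2 without old fish 9 or 10 or adult fish 1, 3 or 4, and in ATP synthase 4 without old fish 6, 9 or 10 or adult fish 3 or 5. Over the 51 tested genes of these lists together, 49 had a lower mean log2 CPM at 39 wph. The mitochondrial ribosome had a negative median too (-0.22), but only 1 of its 31 genes was called, MRPS33 (log2 -0.60; adjusted p up to 0.0904 with 1 library left out, 12 wph replicate 5).

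**Figure D4:**
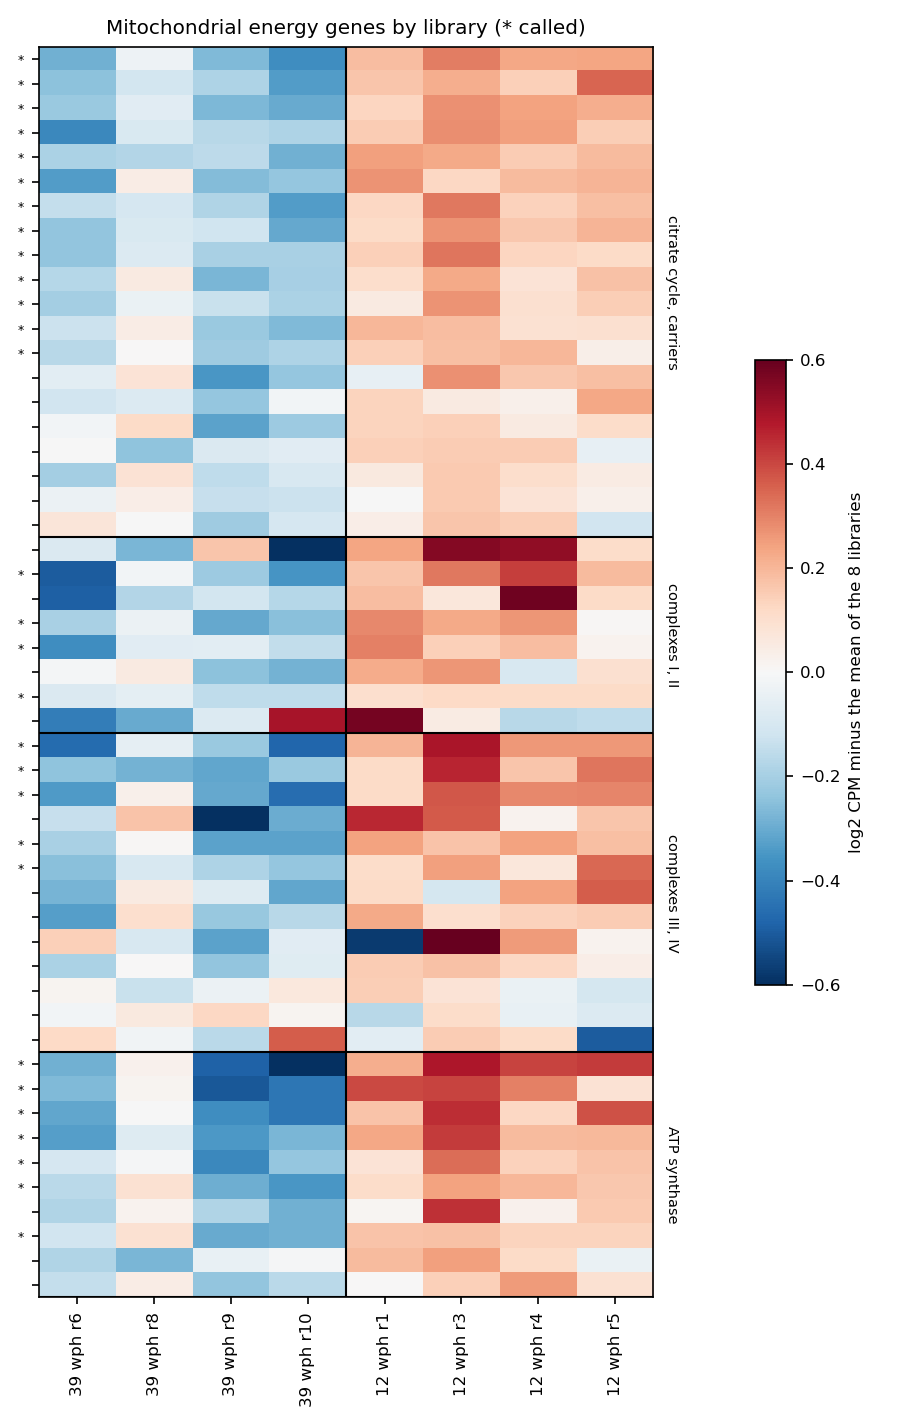
Rows are the 51 tested genes of the citrate cycle and carriers, respiratory complexes and ATP synthase, columns the 4 libraries at 39 wph (left) and the 4 at 12 wph (right), and colour is the log2 CPM minus the mean of the 8 libraries, with colours saturating at 0.6 in either direction. Blue (below the mean) fills most of the left side and red most of the right side, and 39 wph replicate 8 is the palest of the old fish; an asterisk marks the called genes.

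Glycolysis was lower in part. Of 26 tested genes, 8 fell (4 held) and the median was -0.26. PFKFB4, which sets the level of the main activator of glycolysis, was at 69.2, 83.8, 93.1 and 101 CPM at 39 wph, against 116, 124, 118 and 122 CPM at 12 wph (log2 -0.47 ± 0.10, adjusted p = 0.0178). PKM, pyruvate kinase, was at 352, 359, 282 and 300.2 CPM at 39 wph, against 413, 506, 445 and 389 CPM at 12 wph (log2 -0.44 ± 0.10), a call lost without 39 wph replicate 9 or 10 (adjusted p = 0.0514 and 0.0533). Muscle has its own forms of several of these enzymes, and the GAPDH copy given above moved with the muscle markers. Lower members numbered 5 without old fish 6 or 9.

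Called genes of cholesterol synthesis were lower, and genes of lipid transport went both ways. Of 10 tested genes of cholesterol synthesis and its control, 4 fell, all 10 had a negative value, and the median was -0.45. SREBF2, the transcription factor that drives the pathway, was at 101, 95.1, 98.0 and 99.7 CPM at 39 wph, against 127, 125, 119.8 and 132 CPM at 12 wph (log2 -0.36 ± 0.054, adjusted p = 0.00679). NSDHL, an enzyme of its later steps (log2 -1.48; adjusted p up to 0.0714 with 1 library left out, 12 wph replicate 5), and INSIG1, which retains the pathway's regulator (-0.78; adjusted p up to 0.0592 with 1 library left out, 39 wph replicate 6), fell without holding. ACLY, which makes cytosolic acetyl-CoA, was in its copy Nfu_g_1_012075 at 49.7, 64.8, 50.6 and 46.1 CPM at 39 wph, against 86.8, 86.7, 81.7 and 96.4 CPM at 12 wph, a fall of 0.74 log2 (adjusted p = 0.00529). ELOVL1, which makes the very long chains of myelin lipids, was at 21.9, 23.3, 18.4 and 15.4 CPM at 39 wph, against 35.7, 42.3, 29.0 and 28.9 CPM at 12 wph (log2 -0.79 ± 0.16, adjusted p = 0.0150). APOE (Nfu_g_1_011018), the lipid carrier of glia, was at 192, 153, 200.2 and 174 CPM at 39 wph, against 124, 110.2, 142 and 98.6 CPM at 12 wph. The old fish were all above the adult fish, by 0.60 log2 (SE 0.11, adjusted p = 0.0129), and the second ABCA1 copy had a log2 value of -0.59, opposite to the first, with libraries of the 2 ages overlapping (adjusted p up to 0.0715 with 1 library left out, 39 wph replicate 6). Over the 28 genes of fatty acid synthesis and lipid transport, 2 rose and 9 fell. The lower ones numbered 4 without old fish 6 or adult fish 3, 5 without old fish 9 or 10, and in the cholesterol list 2 without old fish 6 or adult fish 5.

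Called chaperones of the cytosol were lower with 1 exception. Of 32 tested genes of the HSP70 and HSP90 systems, 12 fell (9 held) and 1 rose, and the median was -0.24. DNAJA4, a co-chaperone that hands clients to HSP70, was at 84.7, 78.4, 96.3 and 115 CPM at 39 wph, against 165, 218, 147 and 147 CPM at 12 wph (log2 -0.86 ± 0.14, adjusted p = 0.00924). DNAJB1, which with HSP70 breaks up aggregates, was in its copy Nfu_g_1_007621 at 16.3, 14.7, 13.95 and 15.7 CPM at 39 wph, against 22.9, 25.6, 22.3 and 23.5 CPM at 12 wph (log2 -0.64 ± 0.091, adjusted p = 0.00567). DNAJA2 fell by 0.36 log2 and the HSP90 partner CHORDC1 by 0.44, and both held. The 2 called copies of DNAJB5 had opposite signs. DNAJB5 Nfu_g_1_006784 was at 394, 340.4, 451 and 517 CPM at 39 wph, against 253, 267, 186 and 262 CPM at 12 wph, a rise of 0.81 log2 (adjusted p = 0.00924), while Nfu_g_1_009125 was at 15.4, 15.7, 18.5 and 23.2 CPM at 39 wph, against 27.1, 34.7, 27.0 and 27.2 CPM at 12 wph (log2 -0.68; adjusted p up to 0.0569 with 1 library left out, 39 wph replicate 6). Of 10 genes of the chaperonin CCT and prefoldin, which fold actin and tubulin, 5 fell, and CCT7 (-0.27) and CCT2 (-0.26) held, so that 2 or 3 were lower with any 1 library left out.

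In mitochondria, 6 of 18 chaperone and import genes fell (median -0.27), or 3 without 39 wph replicate 6. The matrix chaperonin HSPD1 was at 89.7, 101, 86.4 and 92.4 CPM at 39 wph, against 118, 127, 124 and 112 CPM at 12 wph (log2 -0.38 ± 0.066, adjusted p = 0.00987), and the translocase gene TIMM17A fell by 0.38 log2, and both held. Among 25 genes of the endoplasmic reticulum, 4 fell (16%, against 11.6% over genes with a symbol) and 1 rose (4%, against 5.91%). The disulphide isomerase P4HB fell by 0.32 log2 and held, and ERN1, the stress sensor IRE1, was the higher one (log2 0.42; adjusted p up to 0.0904 with 1 library left out, 12 wph replicate 5). The lower ones numbered 1 without old fish 6 or 10 or adult fish 3 or 5, 2 without old fish 9 or adult fish 4. Proteasome genes had negative values almost throughout. In the 20S core 2 of 9 fell (22.2%, median -0.28) and in the 19S regulator 3 of 17 (17.6%, median -0.23). The lower share over genes with a symbol was 11.6%, and no proteasome call held. Autophagy and lysosome genes gave 1 higher and 3 lower calls of 38 (2.63% and 7.89%), below the 5.91% and 11.6% over genes with a symbol. ATP6V0D1, a subunit of the pump that acidifies lysosomes, and ULK2, which starts autophagy, fell by 0.34 and 0.32 log2 in calls that held. NBR1 was the higher call (log2 0.23) and did not hold. At an unadjusted p under 0.05, 8 members were higher and 7 lower, with ULK1 (0.19) among the higher ones.

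Translation genes differed little apart from tRNA charging. Of 33 large subunit genes 1 was called, RPLP2 (log2 -0.33; adjusted p up to 0.0920 with 1 library left out, 39 wph replicate 6), and of 27 small subunit genes edgeR called none and DESeq2 none, with 3 lower at an unadjusted p under 0.05. Their medians were -0.049 and 0.0069 log2. The aminoacyl-tRNA synthetases, which load amino acids onto tRNAs, had 5 lower members of 16 and a median of -0.19. GARS, which loads glycine, was at 59.9, 60.8, 53.7 and 54.8 CPM at 39 wph, against 74.9, 73.9, 77.4 and 82.0 CPM at 12 wph (log2 -0.43 ± 0.067, adjusted p = 0.00801). MARS fell by 0.46 and FARSB by 0.44 log2, and these 3 held, whereas 3 synthetases were lower without 39 wph replicate 6 or 12 wph replicate 5. No nucleolar gene of 20 was called by edgeR or DESeq2 (1 higher at an unadjusted p under 0.05). Splicing genes gave 2 higher and 2 lower calls of 50 (4% each). Translation factors gave 4 lower calls of 31 (12.9%), of which none held. The shares over genes with a symbol were 5.91% higher and 11.6% lower.

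Genes that respond to neuronal activity formed the list with the most increases. Of 30 tested immediate early genes, 11 rose (6 held), none fell (none at an unadjusted p under 0.05, and none by DESeq2), and the median was 0.38 log2. FOSL2, a partner of JUN, was at 124, 111, 124 and 140.1 CPM at 39 wph, against 84.2, 91.5, 90.8 and 86.7 CPM at 12 wph (log2 0.50 ± 0.073, adjusted p = 0.00612). EGR3, a zinc finger factor induced by activity, was at 113, 106, 121 and 125 CPM at 39 wph, against 76.2, 90.6, 87.1 and 95.7 CPM at 12 wph (log2 0.41 ± 0.080, adjusted p = 0.0139). JUNB (0.51; adjusted p up to 0.0567 with 1 library left out, 39 wph replicate 6), EGR2 (1.35; adjusted p up to 0.0698 with 1 library left out, 12 wph replicate 5) and NPAS4, which is specific to neurons (0.58; adjusted p up to 0.0790 with 1 library left out, 39 wph replicate 6), rose without holding. The higher members numbered 6 without old fish 6 or adult fish 5.

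Clock genes, a group in which sampling at a fixed hour matters, gave 4 higher and 1 lower calls of 22. These shares were 18.2% and 4.55%, against 5.91% and 11.6% over genes with a symbol. NR1D2 (Nfu_g_1_010257), a repressor of the clock's activator arm, was at 23.0, 18.3, 18.8 and 21.0 CPM at 39 wph, against 11.2, 11.99, 12.6 and 13.4 CPM at 12 wph (log2 0.72 ± 0.11, adjusted p = 0.00679). The NR1D2 copies Nfu_g_1_020882 (log2 0.54), Nfu_g_1_013151 (0.18) and Nfu_g_1_010960 (0.10) had higher CPM and were not called. PER1, a repressor that glucocorticoids and activity also induce, was at 80.2, 70.4, 60.6 and 65.5 CPM at 39 wph, against 40.3, 52.0, 46.8 and 48.9 CPM at 12 wph (log2 0.55 ± 0.10, adjusted p = 0.0117). BHLHE40, which is in the immediate early list as well, rose by 0.48 log2, and these 3 calls held with no overlap between the ages. RORA, an activator, was the lower member (log2 -0.26; adjusted p up to 0.0898 with 1 library left out, 12 wph replicate 5). In the glucocorticoid list, 4 of 33 genes rose (12.1%) and 1 fell (3.03%), GLUL, the glutamine synthetase of glia (log2 -0.50; adjusted p up to 0.0559 with 1 library left out, 39 wph replicate 6). The list had a median of 0.0063, close to that of all genes. The insulin, mTOR and FOXO list had 1 call of 32, IGFBP2, a carrier of insulin-like growth factors, at 20.1, 22.3, 18.5 and 17.4 CPM at 39 wph, against 29.8, 27.5, 27.4 and 32.4 CPM at 12 wph (log2 -0.58 ± 0.10, adjusted p = 0.0101), which held.

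**Figure D5:**
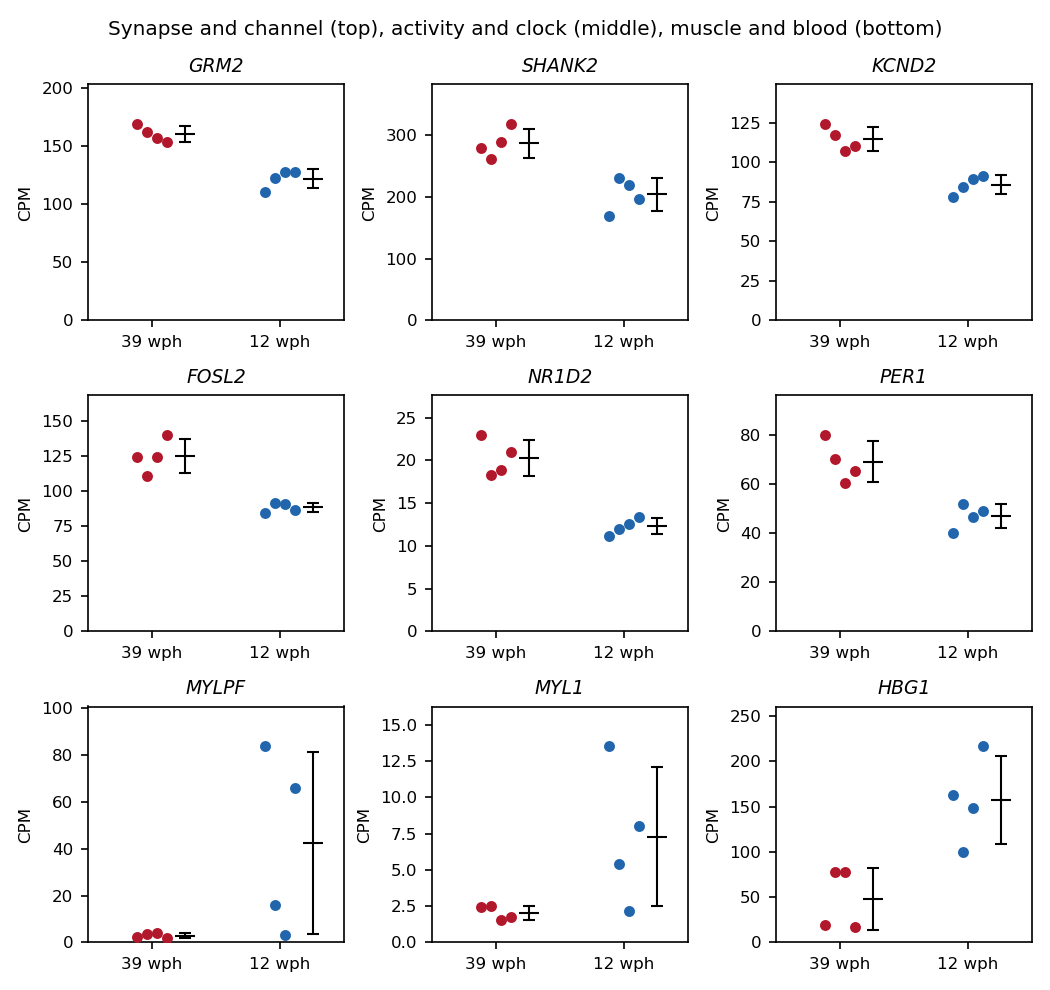
CPM (y axis, from 0) of 9 genes in each library, 39 wph in red on the left and 12 wph in blue on the right, with the group mean and SD in black (n = 4 each). GRM2, SHANK2 (Nfu_g_1_016200), KCND2 (Nfu_g_1_008101), FOSL2, NR1D2 and PER1 lie higher in all 4 old fish than in all 4 adult fish; the muscle genes MYLPF and MYL1 spread widely among the adult fish, and HBG1 lies lower in all 4 old fish.

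Called astrocyte and radial glia markers were mostly lower, whereas the 1 called microglial marker was higher. Of 13 astrocyte and radial glia markers, 5 fell (38.5%, against 11.6% over genes with a symbol) and 1 rose. The other 7 were not called, among them GFAP (log2 -0.11, adjusted p = 0.740), and 5 of the 13 had positive values. The summed level of the 13 markers was 2980 to 3365 CPM at 39 wph and 3659 to 5137 CPM at 12 wph, without overlap. S100B, a calcium-binding protein of glia, was at 532, 559, 717 and 469 CPM at 39 wph, against 1189, 995, 758 and 959.5 CPM at 12 wph (log2 -0.78 ± 0.14, adjusted p = 0.0118). The bicarbonate transporter SLC4A4 fell by 0.38 log2 and held. CYP19A1, the aromatase that fish radial glia express strongly, rose by 0.54 log2 without holding (adjusted p up to 0.102 with 1 library left out, 39 wph replicate 6). Without 39 wph replicate 6 there were 3 lower and 0 higher members. Of 5 microglial markers, APOE Nfu_g_1_011018 alone was called. The lysosomal marker CD68 was at 32.6, 24.2, 35.1 and 21.0 CPM at 39 wph, against 21.1, 19.8, 13.8 and 20.5 CPM at 12 wph (log2 0.59, adjusted p = 0.0630). The APOE copy Nfu_g_1_012304 (log2 -0.045), ITGB2 (-0.055) and SLCO2B1 (0.16) were not called either. Complement, interferon and antigen presentation genes gave 2 higher and 2 lower calls of 27 (7.41% each, against 5.91% and 11.6% over genes with a symbol). NFKBID, an inhibitor of the NF-kappa-B family, was at 10.1, 11.9, 11.5 and 12.7 CPM at 39 wph, against 19.8, 19.4, 17.8 and 22.5 CPM at 12 wph (log2 -0.78 ± 0.11, adjusted p = 0.00568) and was the call that held.

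Called matrix genes were lower with 1 exception, at a share near that of all named genes, and the called antioxidant genes fell. Of 47 matrix genes, 7 fell (14.9%, against 11.6% over genes with a symbol, and 6 held) and 1 rose, with a median of -0.18. HAPLN2, among the lower ones, is also counted with the myelin markers. SPARC, a collagen-binding glycoprotein, was at 32.7, 39.4, 30.8 and 31.2 CPM at 39 wph, against 56.4, 52.8, 42.0 and 47.3 CPM at 12 wph (log2 -0.56 ± 0.11, adjusted p = 0.0137). The basement membrane collagens COL4A1 and COL4A2 fell by 0.37 and 0.41 log2 and the heparan sulphate proteoglycan GPC1 by 0.59, while LAMA3, a laminin chain, rose by 0.49, and all 4 calls held. Endothelial and pericyte markers had 2 lower calls of 19 (10.5%, below the 11.6% over genes with a symbol). These were SLC2A1, the glucose transporter of brain capillaries (log2 -0.31), and MYH11, of smooth muscle (-0.39), both lost without 39 wph replicate 6 (adjusted p = 0.0572 and 0.0563). Of 16 antioxidant and iron genes, 4 fell (3 held) and the median was -0.21. SOD2, the superoxide dismutase of mitochondria, was at 30.5, 27.5, 27.8 and 28.1 CPM at 39 wph, against 39.00, 40.2, 43.3 and 35.8 CPM at 12 wph. The old fish were all lower, by 0.48 log2 (SE 0.080, adjusted p = 0.00924). TXNRD3, a thioredoxin reductase, and GSTA1, a glutathione transferase, fell by 0.37 and 0.48 log2 and held.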

How the data were processed

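Total brain RNA of 8 MZM-0410 fish was analysed. The authors deposited raw read counts per gene, 1 column per library with no pooling. They prepared stranded, ribosomal-RNA-depleted libraries, aligned reads with TopHat2 2.1.0 to the Nfu_20150522 assembly and counted them with featureCounts 1.5.0 without using strand, so antisense, overlapping and duplicated genes may share reads. The 8 libraries were fitted with edgeR 4.0.16 in R 4.3.3 (filterByExpr, TMM scaling, quasi-likelihood test). CPM use these TMM factors, and a standard error is the log2 fold change divided by the root of the F statistic. Symbols came from the study's supplementary tables and cover 5369 genes (20.1%); symbols stand on 52.3% of called and 26.3% of other tested genes. The members, gene lists and marker lists were chosen with earlier results of these data known. Genes were named by rule: per direction, the 10 smallest p-values and 10 largest changes (average log2 CPM of at least 1) among called, symbol-bearing genes without overlap, plus members of the lists. The fit was tested on simulated data, where it recovered 79% of changes of 1 log2 and 27% of changes of 0.5 log2. Genes not called can thus include genes with small changes. No 2 libraries of a group matched within sampling noise (chi-square per degree of freedom 3.86 to 6.17). DESeq2 1.42.0 and other settings were alternatives. No sequence is printed, and some genes the rule names are not reported here.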

Additional observations from a re-analysis of the deposited data

Results flagged for a closer look

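For the 179 genes given with values and for the library totals, 17 of 360 sets of 4 replicates had a replicate whose distance to the nearest other, as a share of the range of the 4 (given here as the gap), was above Dixon's 95% critical value for 4 samples; chance flags about 1 in 20 sets. The library 39 wph replicate 6 was the highest for KCND1 (26.1 CPM, the others 24.1 to 24.2, gap 0.973). The library 39 wph replicate 8 was the highest for RAB3A (56.2 CPM, the others 46.2 to 47.1, gap 0.912), highest for SLC22A23 (46.7 CPM, the others 42.4 to 42.6, gap 0.957) and lowest for CHD2 (139 CPM, the others 156 to 157, gap 0.911). The same library, 39 wph replicate 8, was also the lowest for KCNMA1 (344 CPM, the others 396 to 399.5, gap 0.939). The library 39 wph replicate 9 was the highest for GSTA1 (38.5 CPM, the others 31.1 to 32.0, gap 0.871), highest for HIST1H1A Nfu_g_1_011606 (8.37 CPM, the others 3.47 to 3.97, gap 0.898) and lowest for MYBPH (1.05 CPM, the others 2.05 to 2.16, gap 0.902). The same library, 39 wph replicate 9, was also the lowest for TXNRD3 (37.3 CPM, the others 42.8 to 43.9, gap 0.834). The library 39 wph replicate 10 was the lowest for MARS (21.5 CPM, the others 25.8 to 26, gap 0.959). The library 12 wph replicate 1 was the highest for SLC32A1 (57.1 CPM, the others 38.9 to 41.9, gap 0.835), highest for SEMA3B (63.9 CPM, the others 58.1 to 59.0, gap 0.845) and lowest for HDAC1 (122 CPM, the others 139 to 141, gap 0.887). The library 12 wph replicate 3 was the highest for DNAJB5 Nfu_g_1_009125 (34.7 CPM, the others 27.0 to 27.2, gap 0.966). The library 12 wph replicate 4 was the lowest for CD68 (13.8 CPM, the others 19.8 to 21.1, gap 0.831). The library 12 wph replicate 5 was the highest for CNP (57.0 CPM, the others 43.2 to 45.05, gap 0.864) and highest for BCOR (36.4 CPM, the others 32.5 to 33.0, gap 0.862). In RAB3A the separated replicate (56.2 CPM) still lay below every adult fish. In SLC32A1 it was an adult fish on the side away from the old fish, so it could not bring an overlap. HIST1H1A Nfu_g_1_011606 and SLC22A23 were chosen for having no overlap, so their separation adds nothing.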

How the results depend on the processing

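No paired analysis was possible because the 39 wph and 12 wph libraries share no replicate number. The counts of called genes (700 higher, 1034 lower) became 727 and 1013 with DESeq2 size factors in edgeR, 885 and 1123 with DESeq2, 653 and 933 without the filter on low counts, 860 and 1185 with all 16 libraries in 1 fit, and 609 and 864 after thinning every library to the depth of the smallest. With 1 library left out they ran over 222 to 654 higher and 386 to 966 lower genes, moving over 1.5-fold without 39 wph replicate 6 (222 and 386), 39 wph replicate 9 (369 and 625), 39 wph replicate 10 (366 and 676), 12 wph replicate 3 (439 and 614) or 12 wph replicate 5 (368 and 662). Without 12 wph replicates 1 and 5 together, a choice made after seeing their muscle genes, 68 and 149 genes were called; that fit holds fewer samples. Over the genes given with values, 48 of 179 lost their call without 39 wph replicate 6, 127 without both muscle-rich libraries, 14 with all 16 libraries and 5 or fewer with DESeq2, its size factors, no filter or thinned counts. GH1, which was not called, ran over log2 values of -1.67 to 0.26 with 1 library left out and changed sign without 12 wph replicate 3 (0.26). Of the other genes not called, the KCND2 copy Nfu_g_1_013959 ran over -0.25 to 0.046 and changed sign without 39 wph replicate 6 (0.046), and KCND1 did so without 12 wph replicates 1 and 5 together (-0.0054). The median of each of the 25 gene lists with an absolute median of at least 0.1 kept its sign in every alternative, the names from unranked tables included. Depth limits the calls: low genes such as those of the cell cycle are the least precise, and p-values weigh the age difference against the spread between these fish.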

Other observations

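The gene groups that follow were put together after the values of these genes had been seen, so their counts describe the genes and support nothing further, and no test was run on a group. The sodium pump, which restores the ion gradients of neurons after firing, had 7 called genes of 8 tested, all lower, and 5 of the calls held with any 1 library left out. ATP1B3, a subunit that brings the pump to the membrane, was in its copy Nfu_g_1_005136 at 277, 293, 332 and 346 CPM at 39 wph, against 513, 491, 414 and 491 CPM at 12 wph. Every old fish was below every adult fish (log2 -0.61 ± 0.086 SE, edgeR adjusted p = 0.00529).

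Acetylcholine and monoamine neurons gave 5 lower calls of 6 tested genes. CHAT, which makes acetylcholine, was in its copy Nfu_g_1_002978 at 11.6, 14.2, 11.2 and 9.01 CPM at 39 wph, against 21.1, 23.9, 20.1 and 21.3 CPM at 12 wph (log2 -0.91 ± 0.13, adjusted p = 0.00600). SLC5A7, which takes choline back into cholinergic terminals, was at 7.10, 10.7, 12.3 and 8.43 CPM at 39 wph, against 16.8, 16.1, 17.8 and 15.8 CPM at 12 wph (log2 -0.79 ± 0.16, adjusted p = 0.0155). Both calls held, and old and adult fish did not overlap in either gene. Those of SLC18A3, the acetylcholine loader of vesicles (-1.13; adjusted p up to 0.0750 with 1 library left out, 39 wph replicate 6), and TPH2, the serotonin-making enzyme (-1.25; adjusted p up to 0.128 with 1 library left out, 39 wph replicate 6), did not hold.

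Transcription factors known for the midbrain, the hindbrain or sensory neurons gave 17 lower calls of 19 tested genes (6 held), a count of 6 without old fish 6, 10 without adult fish 5, 11 without old fish 10 or adult fish 3. HOXB5, a factor of the caudal hindbrain, was at 2.77, 3.71, 2.21 and 2.77 CPM at 39 wph, against 6.04, 8.27, 6.43 and 6.08 CPM at 12 wph (log2 -1.23 ± 0.20, adjusted p = 0.00873). TAL1, a factor of midbrain inhibitory neurons, was at 37.4, 40.2, 41.5 and 37.2 CPM at 39 wph, against 74.3, 61.6, 48.5 and 73.7 CPM at 12 wph (log2 -0.72 ± 0.12, adjusted p = 0.00987). POU4F1, a factor of sensory and habenular neurons, fell by 0.78 log2 and held. Of 5 genes of telencephalic neurons, FEZF2 rose, and 4 had positive values. EOMES, a factor of developing excitatory neurons, was at 31.4, 30.5, 24.9 and 24.5 CPM at 39 wph, against 9.89, 14.5, 20.4 and 22.5 CPM at 12 wph (log2 0.71, adjusted p = 0.0515). The composition of the dissected tissue by brain region was not measured. Its part in these values, and in those of the axon, transmission and release genes, was not tested.

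The highest log2 fold changes among called genes belonged to a pair of genes without a symbol, singled out after their values were seen. Nfu_g_1_020418 was at 92.1, 90.8, 6.40 and 3.12 CPM at 39 wph, against 1.10, 2.33, 1.78 and 3.59 CPM at 12 wph and Nfu_g_1_021952 at 191, 76.1, 6.28 and 3.81 CPM at 39 wph, against 6.04, 3.29, 6.43 and 4.15 CPM at 12 wph. Both were high in 39 wph replicates 6 and 8 and far lower in 39 wph replicates 9 and 10.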
